A study of Drosophila melanogaster with 8 samples.

Results

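Innexins are the gap junction proteins of insects. They form channels that join the cytoplasm of neighbouring cells and pass ions and small molecules such as calcium and inositol trisphosphate, and they are unrelated in sequence to the connexins that do this in vertebrates. In flies a channel can be built from 1 innexin or from several, so the set of innexin genes that a cell expresses limits the junctions it can make. In imaginal discs, the larval epithelia that give rise to adult appendages, gap junctions carry calcium signals between cells.

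The 8 innexin genes of Drosophila melanogaster (ogre, Inx2, Inx3, shakB, Inx5, Inx6, Inx7 and zpg) were taken by gene symbol from the 17730 genes in the tables, and all 8 were present. Polyadenylated RNA was sequenced from ML-DmD17-c3 (D17-c3), a line derived from imaginal discs, and from S2-DRSC, a stock of the embryonic line S2 that has features of hemocytes, the blood cells of the fly. Each line was grown in 4 separate flasks, for which the labels name no treatment, and each flask gave 1 library. The study behind them profiled Polycomb group proteins and chromatin in these cells. Each line is a single cultured stock, so the flasks show the spread within a stock and not between independent lines of the same origin. Levels are given as TPM, the relative abundance of transcripts after correction for their length, and fold changes come from edgeR's quasi-likelihood test on the estimated counts.

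Total counts ran from 76822525 to 91074700 in D17-c3 and from 83612326 to 110163700 in S2-DRSC libraries. Of 10 imaginal disc genes, 8 were called toward D17-c3 and 1, ap, toward S2-DRSC (0.11 ± 0.07 against 2.79 ± 0.10 TPM, log2 fold change -4.69 ± 0.31), and Dll, near 0 throughout, was not tested. Among those called toward D17-c3, nub (0.10 to 0.13 TPM) and vg (0.34 to 1.20 TPM) were low in that line. In S2-DRSC, sd and ptc also averaged 76.9 and 22.1 TPM. The summed hemocyte markers stood at 335 to 564 TPM in D17-c3 against 1788 to 1821 TPM in S2-DRSC. Col4a1 (3.96 against 604 TPM), vkg (1.99 against 310), Hml (30.6 against 310) and Pxn (10.4 against 225) supplied most of the S2-DRSC sum. Of the 10 hemocyte genes, 5 were called toward S2-DRSC and 3 had no call. The other 2, srp (138 against 94.4 TPM) and Sr-CI, were called toward D17-c3. D17-c3 replicate 2 stood apart from its group. Its mean correlation of log2 counts with the other D17-c3 libraries was 0.980, against 0.987 to 0.991 for the others, and the hemocyte genes He and Sr-CI reached 57.9 and 37.0 TPM there, against means of 7.83 and 8.70 TPM in the other D17-c3 libraries. Whether these genes bear on the innexin values of that library was not tested. Of 11606 genes tested, 75.2% were called at an adjusted p under 0.05, 39.1% as higher in D17-c3 and 36.1% as higher in S2-DRSC, and 43% were called with a difference of at least 2-fold, so a call alone is common in this comparison. Of the calls, 52.0% were toward D17-c3 here and 62.9% in each of the limma tests on TPM, which were not scaled further.

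Innexin transcripts were in sum far more abundant in D17-c3 than in S2-DRSC, while 1 gene, zpg, went in the opposite direction. Of the 8 genes, ogre, Inx2, Inx3, Inx7 and shakB were higher in D17-c3, zpg was higher in S2-DRSC, Inx5 had no call, and Inx6 was too low to test. In bulk libraries, fewer cells that express a gene and less of its RNA per cell cannot be told apart. The 6 called genes did not overlap between the lines' libraries, which was also so for 71.6% of all tested genes. Summed over the 8 genes, innexin transcripts reached 457, 449, 351 and 450 TPM in D17-c3 replicates 1 to 4, against 40.7, 35.2, 42.6 and 43.5 TPM in S2-DRSC replicates 1 to 4. The mean sums were 427 ± 50.8 and 40.5 ± 3.72 TPM (SD, n = 4 each), a ratio of 10.5.

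**Figure D1:**
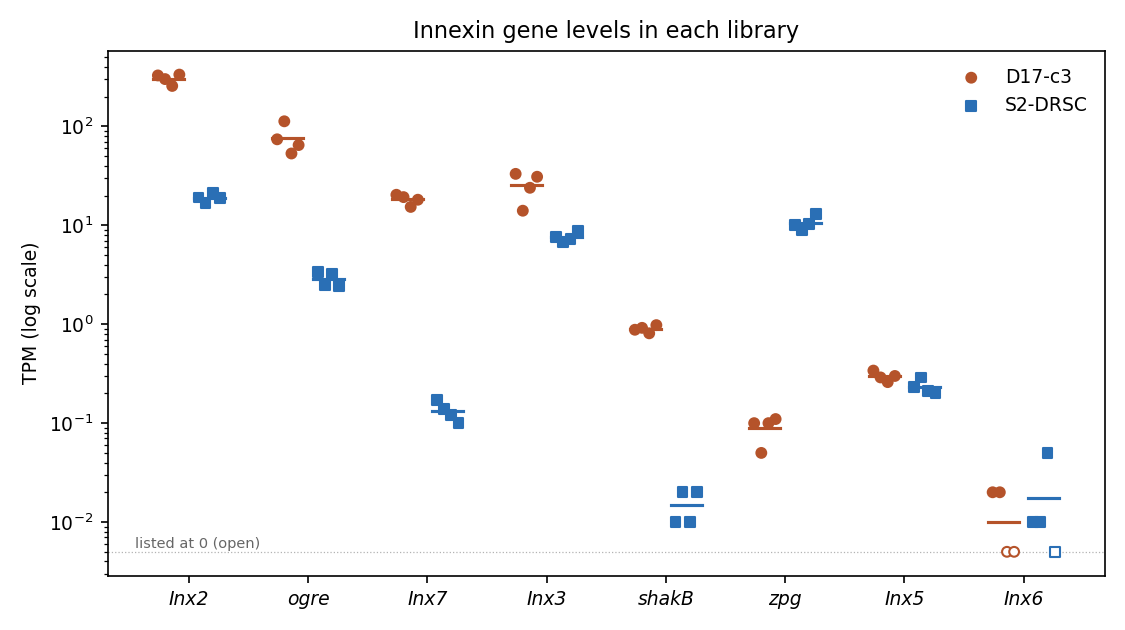
TPM of each innexin gene on a log axis, with 1 point per library (circles D17-c3, squares S2-DRSC) and bars at the means of the 4 libraries; open symbols mark values listed at 0. Inx2 lies highest in both lines, zpg is the gene whose S2-DRSC libraries lie above those of D17-c3, and Inx5 overlaps.

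Inx2 encodes the innexin most widely used in fly epithelia and was the most abundant of the 8 in both lines. It was measured at 328, 302, 257 and 335 TPM in D17-c3, against 19.2, 16.7, 21.4 and 19.1 TPM in S2-DRSC. Every D17-c3 library was thus more than 10 times above every S2-DRSC library, and the spread within a line was small (coefficients of variation of 11.5% and 10.1%). The log2 fold change was 3.74 ± 0.10 (SE), with a 95% confidence interval of 3.51 to 3.96 and an adjusted p of 2.32e-09. Called rises of at least 8-fold were seen in 9.88% of tested genes. By TPM, Inx2 ranked between 356 and 448 of 17730 genes in D17-c3 and between 5049 and 5463 in S2-DRSC.

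ogre (Inx1), named for the reduced optic ganglia of its mutants and known to act with Inx2 in glia, was the second most abundant innexin gene of D17-c3. Its levels were 74.2, 113, 53.3 and 64.9 TPM in D17-c3, against 3.35, 2.49, 3.21 and 2.42 TPM in S2-DRSC. The highest D17-c3 value was that of replicate 2, and the groups did not overlap. The log2 fold change was 4.42 ± 0.20 (adjusted p = 6.77e-08), or 4.22 without D17-c3 replicate 2. In S2-DRSC ogre ranked below Inx2, zpg and Inx3.

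Inx7, which is expressed in the embryonic nervous system and needed in memory neurons of the adult brain, had the largest rise of the family. It stood at 20.4, 19.3, 15.4 and 18.2 TPM in D17-c3, against 0.17, 0.14, 0.12 and 0.10 TPM in S2-DRSC. The S2-DRSC values rest on 18, 18, 14 and 10 counts, all above a floor of 3 counts per library. The log2 fold change was 6.83 ± 0.16 (adjusted p = 1.17e-09), a fold of 114 between a level like that of Inx3 in D17-c3 and a level near 0 in S2-DRSC.

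Inx3, whose protein forms mixed channels with Inx2 in the embryonic epidermis, differed least among the called genes. It was at 33.2, 14.1, 24.0 and 31.0 TPM in D17-c3, against 7.66, 6.71, 7.28 and 8.77 TPM in S2-DRSC. D17-c3 replicate 2 was the lowest of its group, although still above all S2-DRSC libraries. The log2 fold change was 1.53 ± 0.26 (adjusted p = 0.000439), or 1.75 without that library. The ranges of Inx3 and Inx7 overlapped in D17-c3, so they cannot be ordered there, while every S2-DRSC library had more Inx3 than Inx7. Per transcript, Inx2 exceeded Inx3 by 9.90 to 21.4 times in D17-c3 libraries and by 2.17 to 2.93 times in S2-DRSC libraries.

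shakB, the innexin gene of electrical synapses such as those of the giant fibre escape circuit, was low in D17-c3 and near 0 in S2-DRSC. It stood at 0.88, 0.92, 0.81 and 0.98 TPM in D17-c3, from 249 to 298 counts, against 0.01, 0.02, 0.01 and 0.02 TPM in S2-DRSC, from 4 to 12 counts. The log2 fold change was 5.08 ± 0.33 (adjusted p = 5.81e-07). It is by far the longest gene of the family, and the only gene inside its span that passed the filter, CG1314 on the same strand, was likewise at 0.54 to 1.05 TPM in D17-c3 and listed at 0 in S2-DRSC, with no exon shared. Other neuronal markers were lower in sum in D17-c3, at 16.3 to 21.9 TPM against 33.5 to 38.4 TPM in S2-DRSC, and nSyb, Syt1 and para were under 0.5 TPM in every library. Of the 8 neuronal markers 1, Syn, was higher in D17-c3 and 4, led by brp, in S2-DRSC. Beside these and the glial calls below, 39.1% of all genes tested were called toward D17-c3 and 36.1% toward S2-DRSC, or 75.2% in all. Of 6 glial markers, 3 were called toward D17-c3 and 2 toward S2-DRSC, with the defining gene repo at no more than 0.16 TPM in any library. The calls toward D17-c3 were repo, alrm and gcm, each at 0.35 TPM or less in every library. Those toward S2-DRSC were moody and Gs2, with means of 31.5 and 10.1 TPM in that line. The part of either cell type's markers in the innexin levels was not tested.

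zpg (zero population growth, Inx4), the innexin gene of the germline, where it joins germ cells to their somatic support cells, was the exception. It stood at 0.10, 0.05, 0.10 and 0.11 TPM in D17-c3, against 10.1, 8.92, 10.4 and 12.95 TPM in S2-DRSC. The D17-c3 values rest on 9, 4, 8 and 9 counts and the S2-DRSC values on 966, 999, 1031 and 1140 counts. It was the second most abundant innexin gene of S2-DRSC and the seventh of the 8 in D17-c3. The log2 fold change was -7.08 ± 0.26 (adjusted p = 1.62e-08), which is 135-fold higher in S2-DRSC, where 5.55% of tested genes had a called difference of at least 8-fold in that direction.

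Other germline genes differed in both directions. Of 8 germline markers, 2 were called toward D17-c3 and 5 toward S2-DRSC. The shares of all genes tested were 39.1% and 36.1%, with 75.2% called in either direction. The summed list was 39.1 to 48.1 TPM in D17-c3 against 101 to 104 TPM in S2-DRSC. The Piwi-family gene aub (18.6 ± 2.36 against 93.6 ± 1.57 TPM) supplied most of the S2-DRSC sum, while in D17-c3 it and bgcn, a gene of germ cell differentiation (19.97 ± 2.76 against 0.735 ± 0.02 TPM, log2 fold change 4.52 ± 0.13), stood at similar levels. The call of otu toward S2-DRSC was lost in 9 of the 16 alternatives that tested it. vas, the RNA helicase gene that defines germ cells, was near 0 in both lines, at 0.25 to 0.33 TPM in D17-c3 and 0.03 to 0.06 TPM in S2-DRSC, and was called higher in D17-c3. The translational repressor gene nos was at 0.16 to 1.14 TPM in D17-c3 and 0.15 to 0.21 TPM in S2-DRSC, with no call. The part of germline markers in the level of zpg was not tested.

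Inx5 and Inx6 were low in both lines. Inx5 stood at 0.34, 0.29, 0.26 and 0.30 TPM in D17-c3, against 0.23, 0.29, 0.21 and 0.20 TPM in S2-DRSC, and the ranges overlapped. Its log2 fold change was 0.12 ± 0.21 (adjusted p = 0.625), with a 95% confidence interval of -0.35 to 0.58, so a difference of up to that size in either direction is not resolved. Inx6, whose protein pairs with Inx7 in the memory neurons named above, had 2, 2, 0 and 0 counts in D17-c3, against 1, 2, 6 and 0 counts in S2-DRSC. At this depth a count of 0 allows up to 0.0272 to 0.0391 CPM (counts scaled to a common library size), depending on the library, so a difference in Inx6 was not detectable.

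**Figure D2:**
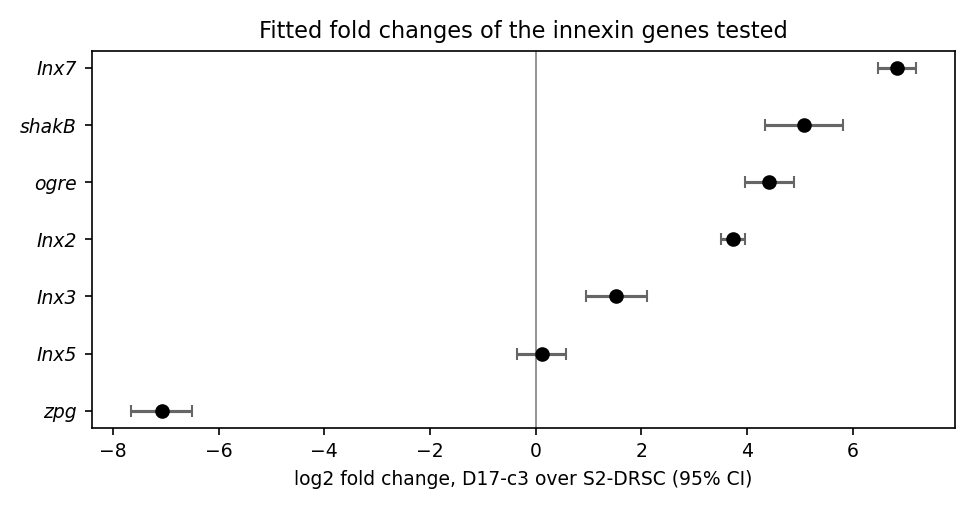
Fitted log2 fold changes of the 7 innexin genes tested, D17-c3 over S2-DRSC, with 95% confidence intervals from edgeR; Inx6 was too low to test. Inx7 lies highest at 6.83, the interval of Inx5 spans 0, and zpg lies at -7.08.

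The fold changes of the 3 genes that are low in 1 line depend on the scale: on log2(TPM + 1), which compresses low values, they were 4.09 for Inx7, 0.90 for shakB and -3.40 for zpg, each still called by limma.

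Because the genes differed by unequal amounts, the make-up of the innexin pool differed as well. Inx2 supplied 71.6% ± 3.17 of the summed innexin TPM in D17-c3 and 47.1% ± 2.58 in S2-DRSC (SD, n = 4 each). ogre supplied 17.7% ± 4.98 in D17-c3 and 7.10% ± 1.13 in S2-DRSC. For Inx3 the shares ran the other way, at 6.03% ± 1.94 in D17-c3 and 18.8% ± 1.27 in S2-DRSC, although its level was higher in D17-c3. zpg supplied 0.0215% ± 0.00742 in D17-c3 and 26.05% ± 2.50 in S2-DRSC, so the S2-DRSC pool consisted mainly of Inx2, zpg and Inx3 transcripts and the D17-c3 pool mainly of Inx2 and ogre. In D17-c3 replicate 2 the share of ogre was 25.1%, against 14.4% to 16.2% in the other D17-c3 libraries, and that of Inx3 was 3.13%. These shares add up to a whole, so a change in 1 gene moves the others.

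**Figure D3:**
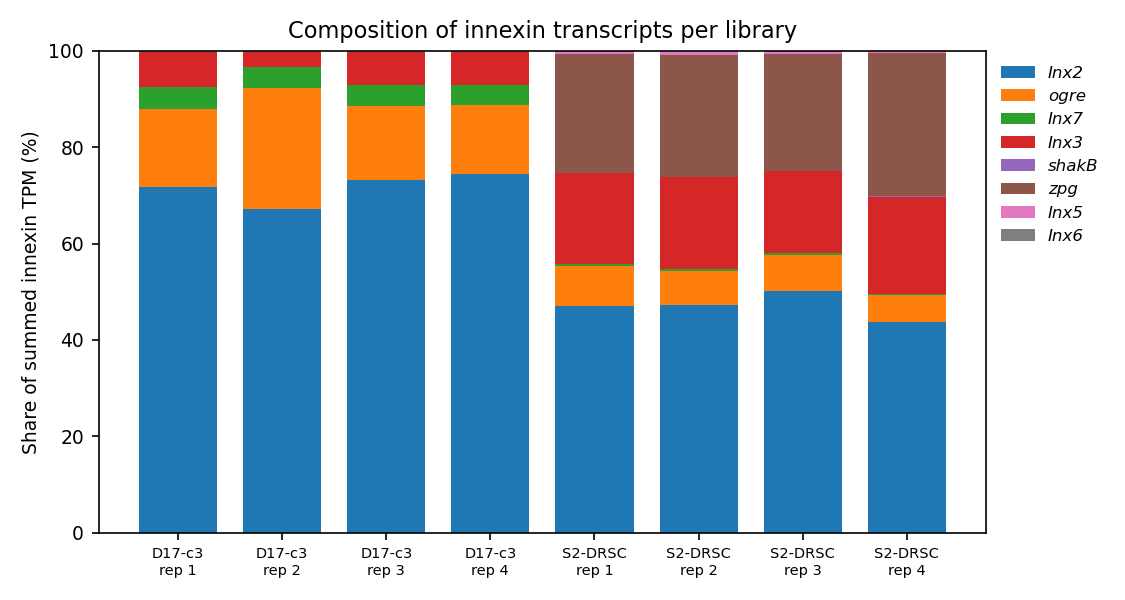
Share of each innexin gene in the summed innexin TPM of each library, in percent, with D17-c3 libraries on the left. Inx2 takes 67.2% to 74.3% of each D17-c3 bar and 43.8% to 50.1% of each S2-DRSC bar, and zpg is visible in S2-DRSC bars alone.

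Of the 8 genes, 6 lie on the X chromosome, and 3 of these form a cluster. In the BDGP6 build, ogre (FBgn0004646, X, 6973620 to 6991318, minus strand), Inx7 (FBgn0027106, X, 6991612 to 6993612, minus strand) and Inx2 (FBgn0027108, X, 6998672 to 7004151, plus strand) lie within 30.5 kb. The end of ogre and the start of Inx7 are 294 bases apart. Inx5 (FBgn0030989, X, 19168777 to 19170883), Inx6 (FBgn0027107, X, 20267821 to 20269769) and shakB (FBgn0085387, X, 20761071 to 20927050) lie far from the cluster, Inx3 is on 3R (FBgn0265274, 28853606 to 28859497) and zpg on 3L (FBgn0024177, 6604366 to 6606032), all on the minus strand. Of all 1929 tested X-linked genes, 39.0% were called toward D17-c3 and 37.6% toward S2-DRSC, and their median log2 fold change was 0.01.

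The 3 clustered genes supplied 92.5% to 96.6% of the innexin TPM in D17-c3 and 49.6% to 57.9% in S2-DRSC. Genes lying among them were higher in D17-c3 too. lncRNA:CR43837, a noncoding RNA gene between Inx7 and Inx2, stood at 15.7, 28.2, 10.3 and 9.73 TPM in D17-c3, against 0.06, 0.10, 0.16 and 0.06 TPM in S2-DRSC (log2 fold change 7.13 ± 0.44, adjusted p = 4.54e-07). bou, which encodes a protein of the Ly6 family needed for septate junctions and overlaps ogre on the opposite strand with no exon shared, stood at 20.9, 15.1, 20.7 and 21.95 TPM in D17-c3, against 2.18, 2.23, 2.37 and 2.74 TPM in S2-DRSC (2.81 ± 0.20, adjusted p = 1.18e-06). As with ogre, replicate 2 held the highest D17-c3 value of lncRNA:CR43837, but it held the lowest of bou.

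Directly outside the cluster the differences were small. On the ogre side, CG3040 was at 28.3 ± 4.88 TPM in D17-c3 and 26.7 ± 2.02 TPM in S2-DRSC with no call, and CG4586 was higher in D17-c3 (log2 fold change 0.72 ± 0.11). On the Inx2 side, the adaptor complex gene cm was at 38.6 ± 2.56 TPM in D17-c3 and 37.2 ± 2.36 TPM in S2-DRSC, and CG32736, which shares identical counts with CG42308, was at 16.2 ± 2.48 and 12.6 ± 1.25 TPM, neither with a call. The fitted log2 fold changes of CG3040 (-0.17 ± 0.09) and cm (-0.17 ± 0.08) were opposite in direction to their TPM. lncRNA:CR44084, on the strand opposite to ogre, covers 10.2% of the exonic bases of ogre. It stood at 2.7, 12.1, 1.99 and 1.16 TPM in D17-c3 and 0 to 0.06 TPM in S2-DRSC (log2 fold change 6.22 ± 1.02). Its highest value was in D17-c3 replicate 2, as was that of ogre. The libraries were stranded, but nothing in the sources used here says whether the counting used the strand. Whether reads of this pair in those bases were kept apart is therefore not known. Farther out, CG14431 (log2 fold change 2.33 ± 0.29) and CG12541 (3.16 ± 0.28), picked after their values were seen, were also higher in D17-c3.

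**Figure D4:**
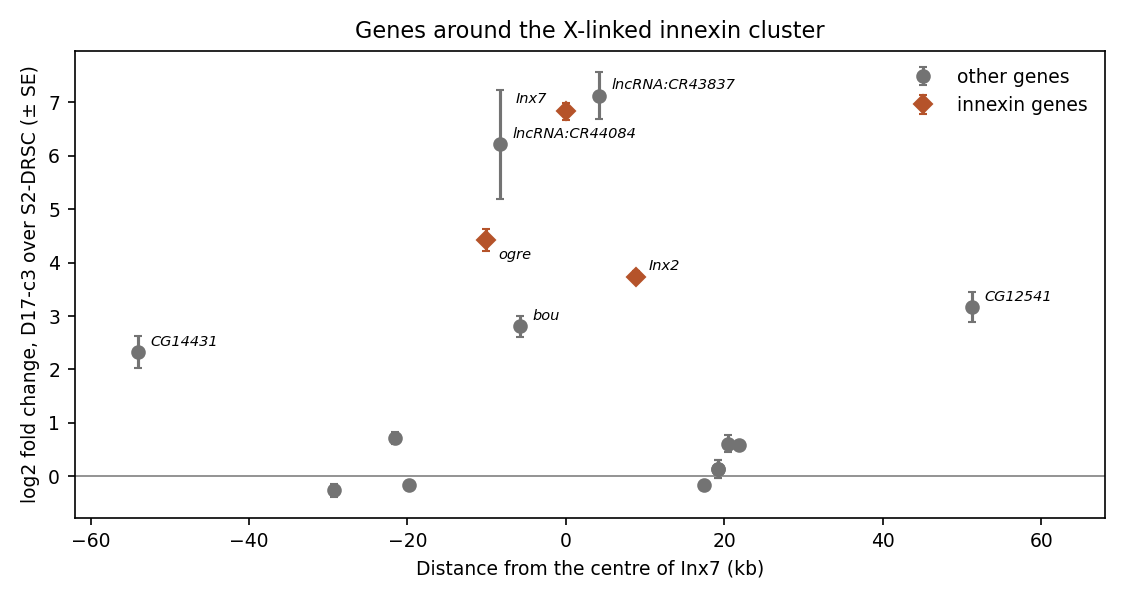
Log2 fold change (D17-c3 over S2-DRSC, with SE) of each tested gene within 75 kb of Inx7, by distance of gene centres in kb; diamonds are innexin genes. The genes between ogre and Inx2 lie from 2.81 to 7.13, and those next to the cluster on either side lie between -0.26 and 0.72 up to about 30 kb from Inx7.

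The neighbours of the other innexin genes varied in direction. Both zpg and Inx3 lie wholly within a gene on the opposite strand, with no exon shared. Rexo5, the host of zpg, was at 29.9 ± 2.26 TPM in D17-c3 and 29.6 ± 1.12 TPM in S2-DRSC, a log2 fold change of -0.22 ± 0.08 (adjusted p = 0.026) whose call was lost in 6 of 17 alternatives and whose sign was positive on TPM, so zpg was near 0 in D17-c3 while its host was expressed. spg, the host of Inx3 and the gene of a Dock-family exchange factor, was lower in D17-c3 (30.6 ± 5.03 against 55.6 ± 6.99 TPM, log2 fold change -1.11 ± 0.10), the direction opposite to Inx3. Of the 2 nearest genes on each side of zpg, ndl (log2 fold change -5.24 ± 0.17, 0.03 ± 0.01 against 1.02 ± 0.08 TPM) and axed (-3.48 ± 0.11, 1.3 ± 0.32 against 12.1 ± 0.75 TPM) were also lower in D17-c3. The mitochondrial calcium uniporter gene MCU had no call, and lncRNA:CR45418 was not tested.

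Of the neighbours of Inx3, WASp was higher in D17-c3 and Apc and Nepl17 in S2-DRSC, and CG33203 had no call. RhoGAP18B, next to Inx5, was higher in D17-c3 (147 ± 15.4 against 40.1 ± 3.23 TPM), and Obp18a and CG7556 were higher in S2-DRSC, the call of CG7556 being lost in 7 of 17 alternatives. CG17065, next to Inx6, was higher in D17-c3 (20.2 ± 1.82 against 1.98 ± 0.15 TPM). The 4 neighbours of shakB, the others of Inx6 and CG33939 beside Inx5 were too low to test.

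The transcripts in use were compared through the mean transcript length that the tables give for each gene and library, which is weighted by the estimated abundance of its transcripts. ogre averaged 2048 ± 25.9 bases in D17-c3 and 2114 ± 53.8 bases in S2-DRSC, among annotated transcripts of 1689 to 3068 bases. Inx2 averaged 2297 ± 25.6 and 2326 ± 7.79 bases, close to its transcript of 2316 bases in both lines. Inx3 averaged 1847 ± 9.64 and 1829 ± 7.91 bases. None of the 3 differences passed a two-sided exact permutation test, with p = 0.143, 0.0857 and 0.0857 (adjusted over the 3 genes 0.143, 0.129 and 0.129) and a smallest possible p of 0.0286, and all were small beside the range of annotated lengths.

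For zpg, with 2 annotated transcripts of 1455 and 1539 bases, the mean length places 7.92%, 13.9%, 16.5% and 1.35% of its transcripts in the longer form in S2-DRSC, and none in D17-c3, where 30 counts in all support the value. shakB used transcripts of 4281 to 5230 bases on average in D17-c3. Its S2-DRSC values (5351 to 11994 bases) rest on at most 12 counts per library and were not tested. Inx5, Inx6 and Inx7 have a single annotated transcript each.

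Genes that work beside gap junctions differed in both directions. Of 8 adherens junction genes, whose cadherin and catenin proteins hold epithelial cells together, 4 were called toward D17-c3 and 2 toward S2-DRSC. Those higher in D17-c3 were the adhesion genes ed (log2 fold change 5.80 ± 0.30, 175 ± 58.6 against 2.7 ± 0.21 TPM), CadN (5.51 ± 0.24) and shg, the E-cadherin gene (2.46 ± 0.10, 28.6 ± 4.43 against 4.36 ± 0.24 TPM), and the scaffold gene pyd. The catenin genes p120ctn (-1.80 ± 0.07) and alpha-Cat (-0.64 ± 0.07) were higher in S2-DRSC. The beta-catenin gene arm was at 314 ± 33.9 TPM in D17-c3 and 303 ± 15.7 TPM in S2-DRSC with no call (adjusted p = 0.104). Its fitted log2 fold change was -0.19 ± 0.10, opposite in direction to its TPM, and its CPM did not overlap between the lines. The list's median log2 fold change was 1.02, beside 0.04 for all genes tested. Of all genes tested, 39.1% were called toward D17-c3 and 36.1% toward S2-DRSC.

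Of 12 septate junction genes, which make the barrier junctions of insect epithelia, 7 were called toward D17-c3 and 0 toward S2-DRSC by edgeR (1 with an unadjusted p under 0.05, dlg1, and 1 by limma-voom), with a median of 0.77. The shares of all genes tested were 39.1% toward D17-c3 and 36.1% toward S2-DRSC, with 75.2% called in either direction. nrv2 (log2 fold change 2.59 ± 0.19), the neurexin gene Nrx-IV (1.93 ± 0.11) and scrib (1.79 ± 0.17) led, while cora, kune, dlg1, l(2)gl and Atpalpha had no call. The highest fold change of the list was thus smaller than those of Inx2, ogre and Inx7.

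Genes for calcium release and its spread, the signal that innexin channels pass on, also differed in both directions. Of 12 such genes, 3 were called toward D17-c3 and 6 toward S2-DRSC, and the list's median was -0.28 on the log2 scale. Over all genes tested these shares were 39.1% and 36.1%. The exchanger gene Calx (1.097 ± 0.16) and Itp-r83A, the gene of the inositol trisphosphate receptor (0.52 ± 0.08), were higher in D17-c3. The third call was the phospholipase gene norpA (0.45 ± 0.18, adjusted p = 0.0461), whose libraries overlapped in CPM and whose call was lost in 9 of 17 alternatives (adjusted p from 0.0702 to 0.143 in those), 7 of them with a library left out. The phospholipase gene Plc21C (-2.48 ± 0.12), olf186-F, the gene of the Orai calcium channel (-1.68 ± 0.18), and the ryanodine receptor gene RyR (-1.59 ± 0.21), at 0.08 TPM or less, led toward S2-DRSC, with Cam, Galphaq and SERCA.

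**Figure D5:**
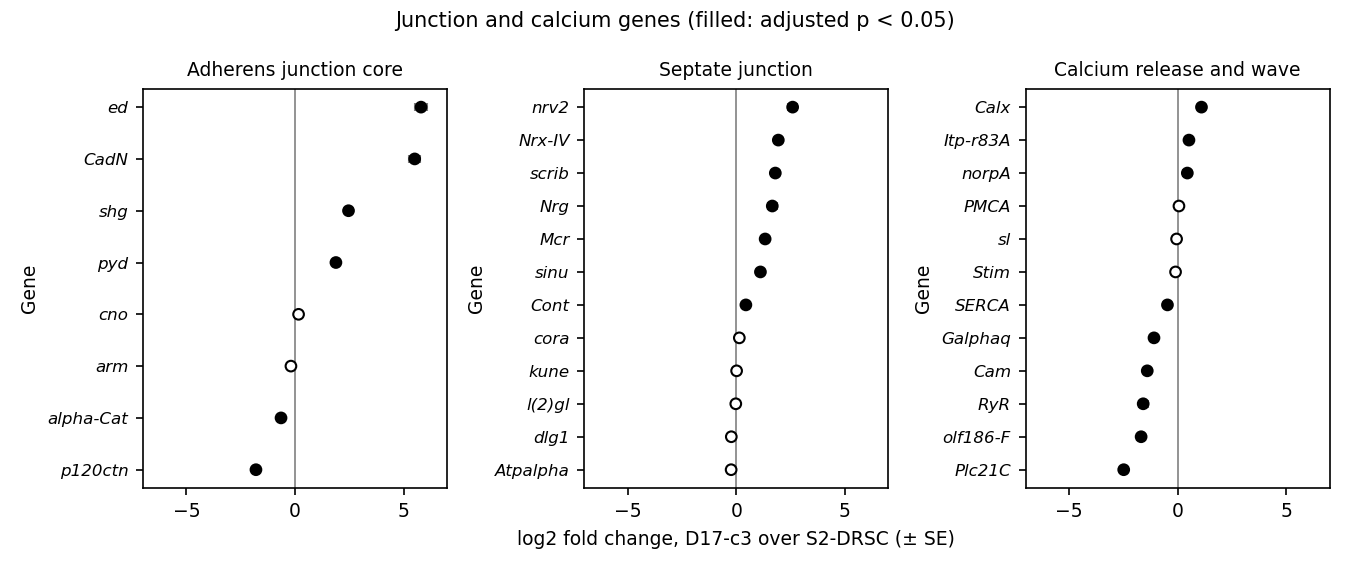
Log2 fold change (D17-c3 over S2-DRSC, with SE) of each adherens junction, septate junction and calcium gene, filled where the adjusted p was under 0.05. The junction panels reach 5.80 and 2.59 toward D17-c3, and the calcium panel reaches -2.48 toward S2-DRSC.

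The genes whose levels over the 8 libraries were most like those of each innexin gene were found by the root mean square difference of log2 CPM, each gene centred on its mean. For Inx2 they were ckn, Shrm and chrb, with differences of 0.08, 0.11 and 0.12. For Inx3 they were sick, CG7991 and the septate junction gene Nrg (0.15, 0.15 and 0.16), and Nrg was also lowest in D17-c3 replicate 2 within its group. The closest to ogre was asRNA:CR45130 (0.16), followed by CG13403 and asRNA:CR45822, and the closest to Inx7 were Dscam4 (0.19), wuc (0.25) and PGRP-SC2 (0.27). Those of shakB were conv, ac and CG2772 (0.27 to 0.32), those of Inx5 were CG13894, Ip259 and asRNA:CR45970 (all 0.08), and those of zpg were DptB, CG7329 and CG2841 (0.25 to 0.27). With 2 lines this measure mainly ranks genes by the size of their difference between the lines, and CG13403, listed at 0 in S2-DRSC, and ac are placed near ogre and shakB in part by the count of 2 added before the logarithm.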

How the data were processed

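Per the labels' protocols, polyadenylated RNA from 4 flasks per line was made into stranded mRNA libraries. RSEM, STAR 2.7.3a, Trim Galore 0.6.4, Subread 2.0.0 with featureCounts, and DESeq2 1.30.1 are listed, per the submitters' processing notes, with no role given, as are the builds dm6 and BDGP6. Per the file headers, the deposited tables hold expected counts (estimated counts, in part shared between genes), TPM, FPKM (not tested) and lengths, and 21.2% to 22.4% of nonzero counts were not whole. TPM keeps no depth.

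Counts were rounded and tested with edgeR 4.0.16 (quasi-likelihood, TMM, filterByExpr, all 8 libraries, line as the only term), with Benjamini-Hochberg adjustment over all 11606 tested genes. SEs were derived from each fold change and its F statistic. In data simulated from S2-DRSC mean levels, with 200 of 11606 genes changed, 94.1% of genes changed 4-fold were recovered. In the real data 75.2% of tested genes were called, so this rate is not the power of the comparison. Alternatives used limma 3.58.1, DESeq2 1.42.0, other scalings and filters, and single libraries left out. Floors are 3 counts and cover counting error only. Positions are from Ensembl's BDGP6 annotation, which held 17633 of the gene IDs. Innexin sequences were not used here. Replicates within a line differed by more than sampling noise (chi-square per degree of freedom of at least 8.80).

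The members, the lists of junction, calcium and marker genes and the tests were chosen with earlier results of these data known. The genes named are all innexins, up to 3 called list members per direction, the 2 nearest annotated genes on each side and the 3 genes most alike; other list members are named by role. The gene window around Inx7 was chosen after its values were seen. Mean lengths were tested where each library had at least 10 counts and more than 1 transcript was annotated.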

Additional observations from a re-analysis of the deposited data

Results flagged for a closer look

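Among the D17-c3 libraries, 1 value lay far from the others of its group: zpg in replicate 2, at 0.05 TPM, against 0.10, 0.10 and 0.11 TPM in replicates 1, 3 and 4. It rests on 4 counts, against 8 or 9, and about 1 in 20 groups of this size would be picked out by chance. The screen covered TPM of all 8 genes in both lines and the mean lengths of ogre, Inx2 and Inx3, so a single flag can arise by chance.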

How the results depend on the processing

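The counts of 5 innexin genes higher in D17-c3 and 1 higher in S2-DRSC were the same under all 17 alternatives (other scalings and filters, DESeq2, limma-voom, limma on TPM, the replicate block and each library left out). Inx5 kept its direction without a call in the 16 alternatives that tested it (adjusted p from 0.136 to 0.899). Log2 fold changes ranged from 3.65 to 3.99 for Inx2, 4.22 to 4.64 for ogre, 1.37 to 1.75 for Inx3, 4.09 to 6.999 for Inx7, 0.90 to 5.42 for shakB and -7.19 to -3.40 for zpg. The median of all genes was 0.21 with library totals and 0.18 or 0.25 on TPM, against 0.04 here, and the innexin directions did not change. Counts for the junction and calcium lists stayed within 1.5 times, except for septate junction genes higher in S2-DRSC: 1, dlg1, with no filter, limma-voom or the replicate block, and 0 to 1 with a library left out (dlg1 without D17-c3 replicate 2, Atpalpha without replicate 4). Other listed or neighbouring genes that lost a call were alrm and CG7556 (7 alternatives each), norpA and otu (9 each), Rexo5 (6, with 0.01 on TPM), bt (4), osk and SERCA (3 each), Nepl17 (2, on TPM), RyR (1, on TPM) and WASp (1, without S2-DRSC replicate 4). The cause was not tested. Same-numbered flasks showed little shared deviation (correlations -0.04 to 0.11, with 2 of 4 D17-c3 libraries closest to their own number). No pairing by number was seen, but 4 such correlations cannot settle whether flasks were handled in pairs. With the replicate block the innexin counts were again 5 and 1. Depth limits Inx6 and the low side of zpg, shakB and Inx7.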

Other observations

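Marker lists of other cell types moved unevenly. Beside the counts below, 39.1% of all genes tested were called toward D17-c3 and 36.1% toward S2-DRSC. Of 7 genes used as follicle cell markers, 6 were called toward D17-c3 and 1, Cad99C, toward S2-DRSC. Their summed level was 187 to 299 TPM in D17-c3 against 4.82 to 6.56 TPM in S2-DRSC, and most of the list's level came from br (243 ± 49.6 TPM in D17-c3 against 3.72 ± 0.80 TPM in S2-DRSC), a gene that imaginal discs also express. Of 6 muscle genes 5 were tested, with 3 called toward D17-c3 and 1, bt, toward S2-DRSC. Those toward D17-c3 were low in that line: Mhc at 0.18 to 1.97, Act57B at 0.87 to 1.68 and Act88F at 0.11 to 0.33 TPM. The highest Mhc value was that of D17-c3 replicate 2, and bt was at 0.11 TPM or less in every library. Mef2 supplied most of that list's level in both lines and had no call.

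Of 10 hemocyte genes, 2 were called toward D17-c3 and 5 toward S2-DRSC, with the largest falls in D17-c3 for the collagen IV genes vkg and Col4a1.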
